A study of Mus musculus and Canis lupus familiaris and Equus caballus with 9 samples.

Results

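The horse list of NRSF binding held 2185 peaks, and 367 of them (16.8%, exact 95% interval 15.3 to 18.4%) lay within 10 kb of another peak of the same list. These close peaks are described here. A peak was counted as close when its midpoint lay at most 10 kb from the midpoint of another peak, so the members were chosen by the positions themselves. Counts and distances below describe the list, and no test was made on them. The 367 peaks are part of 12075 peaks in the 4 deposited lists, which cover horse, dog, mouse and human.

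NRSF, for which REST is the other name, is a DNA-binding protein with zinc fingers that binds a DNA element named NRSE or RE1 and recruits corepressor complexes, among them those built on SIN3A and CoREST. It is known for keeping neuronal genes silent in cells that are not neurons, and skin fibroblasts are such cells. A ChIP-seq peak marks a stretch where immunoprecipitated DNA fragments pile up. A position alone does not tell whether neighbouring peaks are separate binding elements.

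The horse cells were E.Derm (NBL-6) fibroblasts, a skin cell line established from a quarterhorse, used at passage 10. Chromatin was fixed with 1% formaldehyde and broken to 200 to 300 bp. There were 2 samples immunoprecipitated with a monoclonal antibody to NRSF and 1 input sample without antibody, and the labels name neither a treatment nor a genetic change. The labels tie a single list to both immunoprecipitated samples. All horse peaks thus come from 1 cell line, with no score, no value per replicate and no read depth, and the spread between the replicates could not be given. The dog and mouse lists come from ML2 leukaemia cells and RAW264.7 macrophages at passages 13 to 15, with the same numbers of samples, and no sample is tied to the human list. Positions are given as in the deposited horse list, whose genome build is not given in the sources used here. No horse sequence or gene annotation was used, so neither the bases under the peaks nor the genes beside them were examined.

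Most close peaks came in pairs. Chaining each peak to the next one within 10 kb gave 161 groups, of which 133 were pairs (82.6% of the groups, with 266 of the 367 peaks). There were 17 groups of 3 peaks, 7 groups of 4, 2 groups of 5 and 2 groups of 6. The 28 groups of 3 or more held 101 peaks, 27.5% of the members. Groups occurred on 27 of the 32 chromosomes that carried a peak, and groups of 3 or more on 15.

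Short distances were the most frequent within groups. The 206 distances between consecutive midpoints within groups ran from 470 to 9870 bp, with a median of 3210 bp and an interquartile range of 1198 to 5884 bp. Of these distances, 48 (23.3%) were at most 1 kb and 75 (36.4%) at most 2 kb. Counted by kb, there were 48 distances in the first, 27 in the second, 16 in the fifth, 21 in the sixth and 9 in the tenth. Between 10 and 20 kb, outside the rule, each kb held 6 to 14 distances, 91 in all. The counts showed no break at the reach of 10 kb.

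**Figure D1:**
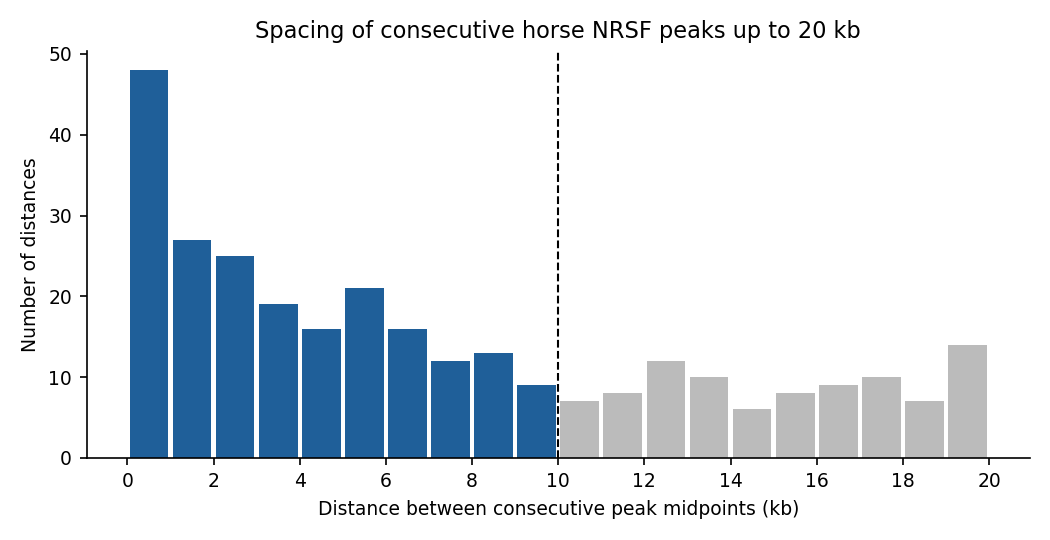
Number of distances between consecutive horse peak midpoints (vertical axis) in steps of 1 kb (horizontal axis, kb); blue bars lie inside the reach of 10 kb (dashed line) and grey bars outside it. The first bar holds 48 distances, the tenth 9, and the bars from 10 to 20 kb between 6 and 14.

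Each peak was 400 bp wide and none overlapped another, so the smallest distance of 470 bp left 70 bp between facing edges. Larger groups held distances of 475, 480, 490 and 495 bp, on chromosomes 4, X, 13 and 11, and are left aside here. Among groups of exactly 2 peaks, the 5 pairs with the smallest distances lay on 5 different chromosomes. On chromosome 17, at 19031565 to 19032435, and on chromosome 4, at 9408505 to 9409375, the midpoints were 470 bp apart. The others were on chromosome 9 at 79809815 to 79810715 (500 bp), chromosome 12 at 31047390 to 31048315 (525 bp) and chromosome 1 at 162802655 to 162803585 (530 bp). Their surroundings differed: the next peak was 10840 bp away from the chromosome 1 pair and 648280 bp away from the chromosome 9 pair. Just inside the reach, the widest distances were 9870 bp on chromosome 1 (peaks starting at 27030385 and 27040255), 9850 bp on chromosome 11 and 9760 bp on chromosome 2. Just outside it, the 3 nearest misses, of 10250, 10510 and 10550 bp, were all on chromosome 22.

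Distances in pairs and in larger groups covered much the same range, which the rule caps at 10 kb and the peak width bounds from below. In the 133 pairs the median was 3280 bp and 26 distances (19.5%) were at most 1 kb. In the 28 larger groups, 73 distances had a median of 2690 bp and 22 (30.1%) were at most 1 kb. Seen from each member, the nearest peak lay at a median of 2760 bp, and 117 of the 367 members (31.9%) had theirs more than 5 kb away.

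The largest groups held 6 peaks, and they differed in how tightly these were packed. On chromosome 12, 6 peaks lay within 9750 bp, from 25586765 to 25596515, at distances of 2005, 1320, 3050, 2425 and 550 bp. On chromosome 11, 6 peaks covered 30670 bp, from 19957125 to 19987795, at distances of 5450, 8795, 495, 5680 and 9850 bp. The chromosome 11 group is held together by the second widest distance inside the reach, and its last peak would drop out at a slightly shorter one.

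Both groups of 5 were compact. The group on chromosome 20 ran from 26068535 to 26075435, with 5 peaks in 6900 bp at distances of 530, 3260, 2050 and 660 bp. The group on chromosome 2 ran from 48893635 to 48903565, with distances of 1600, 695, 935 and 6300 bp. In the latter, 4 peaks formed a tight row and the fifth stood apart.

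Of the 7 groups of 4, 3 had the same layout, a close pair, a wide middle and another close pair. On chromosome 1, from 162962235 to 162971505, the distances were 950, 7285 and 635 bp. On chromosome 3, from 22919405 to 22929885, they were 610, 8520 and 950 bp. On chromosome 5, from 36205565 to 36214905, they were 880, 7080 and 980 bp. Across these 3 groups the outer distances were 610 to 980 bp and the middle ones 7080 to 8520 bp. This layout was noticed after the distances had been seen. The other 4 groups of 4 were more evenly spaced: 1225, 3550 and 1750 bp on chromosome 3 (36265125 to 36272050), 2345, 4275 and 5180 bp on chromosome 15 (13593715 to 13605915), 2690, 8060 and 5370 bp on chromosome 21 (4278195 to 4294715), and 5895, 7785 and 6470 bp on chromosome 14 (36047985 to 36068535).

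**Figure D2:**
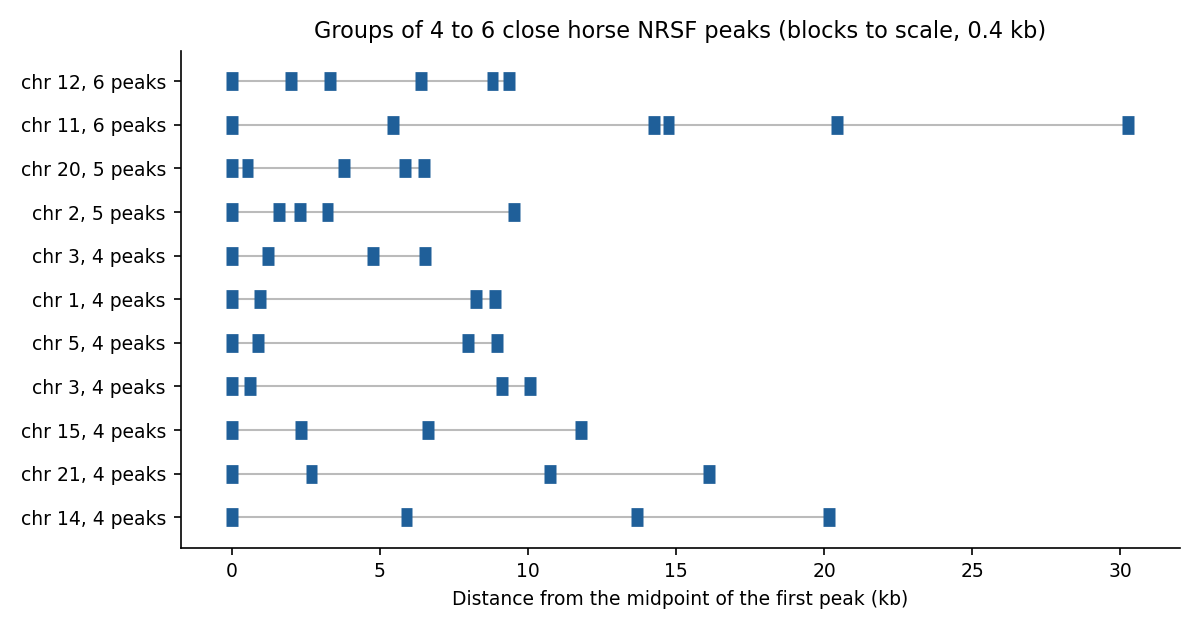
The 11 horse groups of 4 to 6 close peaks, 1 per line with its chromosome; blocks are the 400 bp peaks, placed by their distance in kb from the midpoint of the first peak (horizontal axis). The chromosome 1 and chromosome 5 groups of 4 and the longer of those on chromosome 3 show close pairs at both ends, and the group of 6 on chromosome 11 is the longest, at 30.67 kb.

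The 17 groups of 3 spanned 1500 to 18770 bp. In 3 of them both distances were under 1 kb. These stood on chromosome 13 at 2463795 to 2465295 (610 and 490 bp), chromosome X at 1846305 to 1847845 (535 and 605 bp) and chromosome 11 at 1628685 to 1630275 (530 and 660 bp). Each of these rows of 3 peaks took up about 1.5 kb (1500, 1540 and 1590 bp). The next peak lay 581620, 1087600 and 163120 bp away. The widest group of 3, on chromosome 8 at 4981695 to 5000465, had distances of 9570 and 8800 bp. In 9 of the 17 the longer distance was at least 2 times the shorter one. These groups were singled out after their values had been seen.

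Beyond the reach, further peaks lay nearer to groups than to single peaks. From the outermost peaks of a group, the next peak outside lay at a median of 58750 bp, and for 71 of the 161 groups (44.1%) it was within 50 kb. For the 1818 peaks with no neighbour within 10 kb, the nearest peak lay at a median of 202635 bp, and within 50 kb for 367 (20.2%). Both distances exceed 10 kb by construction. In bins of 1 Mb with fewer than 10 peaks the medians were closer to each other, 112740 bp for 124 groups and 224103 bp for 1750 single peaks. There the next peak was within 50 kb for 41 of the groups (33.1%) and 332 of the single peaks (19.0%). The bin count includes the peaks of the group and those near it, so part of this approach of the medians is built into the filter. Over all 161 groups, the next peak outside belonged to another group in 31 (19.3%). The nearest peak of a single peak belonged to a group in 144 of 1818 (7.92%). A step of this kind meets a whole group or a single peak, and there were 161 groups and 1818 single peaks. The 16.8% of all horse peaks that were members is thus no yardstick for these shares, whose difference was not tested. At the other extreme, 10 of the 161 groups had no further peak within 1 Mb. Of these, 9 were pairs, and pairs made up 82.6% of all groups. Among the 1818 single peaks, 304 had no peak within 1 Mb.

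With a reach of 20 kb, several groups fused into longer rows. The longest then held 10 peaks each, on chromosome 14 from 36034660 to 36117405 (82.7 kb) and on chromosome 20 from 26068535 to 26140115 (71.6 kb). The chromosome 11 group grew from 6 to 8 peaks over 62.5 kb. The 6 peaks on chromosome 12 and the 5 on chromosome 2 gained none.

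Close peaks were unevenly shared out among the chromosomes. Chromosome 1 had the most, 48 of its 185 peaks (25.9%), followed by chromosome 2 with 31 of 134 (23.1%), chromosome 11 with 30 of 138 (21.7%) and chromosome 12 with 29 of 75. Together these 4 chromosomes held 138 members, 37.6% of all, and 24.3% of all horse peaks. By share, chromosome 12 stood highest with 38.7% (exact 95% interval 27.6 to 50.6%), against 16.8% for the whole list. Chromosome 21 came next with 14 of 46 peaks (30.4%, interval 17.7 to 45.8%). The interval of chromosome 21 overlaps those of chromosomes 1, 2, 11 and 12. Such intervals cover counting error only, and they are too narrow because close peaks come in groups and are not independent of each other.

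The share on several chromosomes rested in large part on 1 bin of 1 Mb. The bin left out below was chosen for having the most members, so a fall was built in. It occurred on every chromosome with members. Leaving out the bin with the most members, the share fell from 16.9% to 3.64% on chromosome 20, from 17.9% to 8.33% on chromosome 14, from 16.2% to 8.82% on chromosome 8 and from 25.9% to 17.6% on chromosome 1. On chromosome 15 it fell from 14.5% to 6.35%, and on chromosome 21 from 30.4% to 20.0%. Chromosome 12 kept 32.8% (21 of 64 peaks), so its members were spread over several places: 12 groups, 10 of them pairs.

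On 5 chromosomes, 19, 25, 27, 30 and 31, no peak had a neighbour within 10 kb. They carried 123 peaks, from 8 on chromosome 27 to 54 on chromosome 25. For chromosome 25, with 0 of 54, the upper bound of the exact 95% interval was 6.60%. This bound is too low, because close peaks come in groups and are not independent, and the chromosome was picked for its lack of members. Chromosomes 9, 23 and 29 had 1 pair each, and chromosome 9 had 53 peaks. Chromosome X had 13 members among 56 peaks (23.2%), and 3 of its 5 groups were groups of 3.

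Peak density and the share of members did not always go together. Chromosome 12 also had the highest density, 2.29 peaks per Mb of the length that ends at its last peak, but chromosome 11 was close to it with 2.25 per Mb and 21.7% members. Chromosome 25 had 1.37 per Mb and no member, while chromosome 21 had 0.811 per Mb and 30.4%. Over the 32 chromosomes, density and the share of members had a Spearman rho of 0.40 and a Pearson r of 0.49. Both measures count the same peaks and so are not independent. Near the chromosome ends the shares were similar: 27.5% of the members and 26.9% of the other peaks lay in the first or last 10% of the length between the first and last peak of a chromosome.

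**Figure D3:**
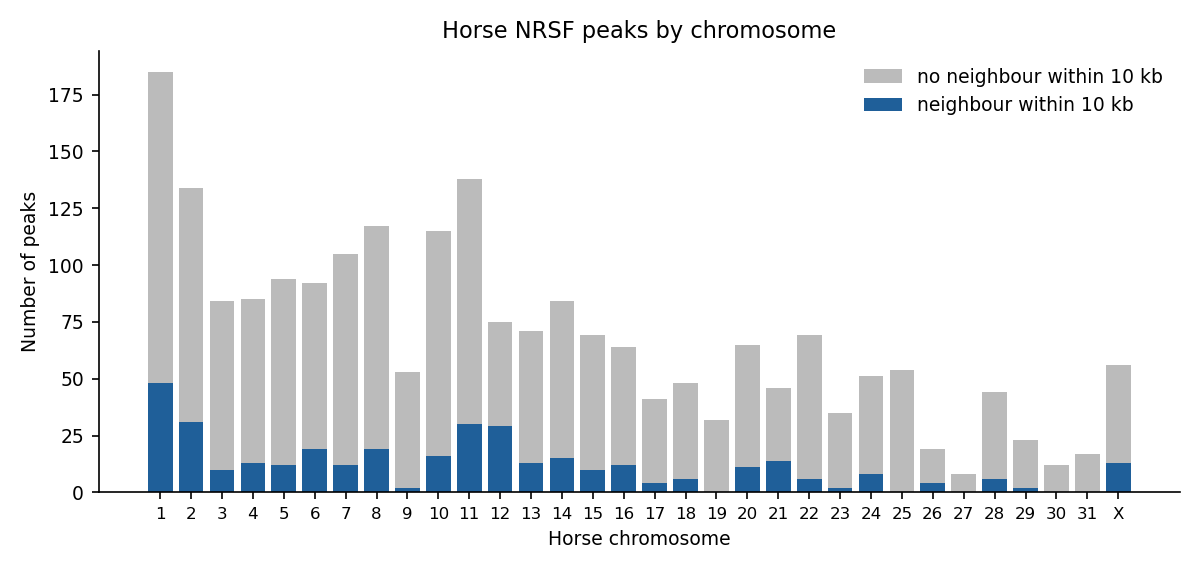
Number of horse peaks (vertical axis) on each chromosome (horizontal axis), split into peaks with a neighbour within 10 kb (blue) and without (grey). Chromosome 1 has the tallest blue bar, 48 of 185 peaks, chromosome 12 the largest blue share, 29 of 75, and chromosomes 19, 25, 27, 30 and 31 have none.

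Along the chromosomes, the rule itself limits the number of places with members, since the 367 members come at least 2 together, in 161 groups. Of the 1055 bins of 1 Mb with a peak, 125 held a member, and these carried 631 peaks (28.9% of all). Among them, the 34 bins with the most members held 184 members, just over 50%, and 278 peaks, 12.7% of all. No matching number of bins was computed for all peaks, so the 34 is no measure of crowding by itself. The 930 bins without a member carried 1554 peaks. In 568 of them there was only 1 peak, so a close neighbour could lie only across a bin edge. Of the 125 bins, 88 held exactly 2 members, which together were 176 peaks (48.0% of the members). These 88 bins carried 345 peaks in all, so most of the pairs in them shared their bin with other peaks.

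The 15 bins with 5 or more members held 115 of the 367 (31.3%) in 44 groups, on 11 chromosomes. They carried 165 peaks, 7.55% of all horse peaks. The first 5 bins alone held 56 members among 74 peaks. The bin from 162 to 163 Mb of chromosome 1 had 20 members among 26 peaks. The bin from 4 to 5 Mb of chromosome 8 had 10 among 15, and the bin from 36 to 37 Mb of chromosome 14 had 9 among 12. The bin from 26 to 27 Mb of chromosome 20 had 9 among 10, and the bin from 25 to 26 Mb of chromosome 12 had 8 among 11.

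These places differed in how their groups lay. On chromosome 14 all 9 members sat in a stretch of 69.4 kb with no other peak between them, as groups of 4, 3 and 2. On chromosome 20 the 9 members covered 71.6 kb with 1 other peak between them. On chromosome 8 the 10 members were scattered over 962 kb, as 4 pairs and part of a group of 3 that crosses into the next bin, with 4 other peaks between them. The smallest distance on chromosome 8 was 540 bp, and on chromosome 14 it was 1955 bp.

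Further down, the bins from 48 to 49 Mb of chromosome 2 (7 members) and from 19 to 20 Mb of chromosome 11 (6 members) each owed most of their members to a single large group. By contrast, the bins from 20 to 21 Mb of chromosome 2, from 17 to 18 Mb of chromosome 12, from 163 to 164 Mb of chromosome 1 and from 41 to 42 Mb of chromosome 11 each held 3 separate pairs. Bins from 28 to 29 Mb of chromosome 15 and from 4 to 5 Mb of chromosome 21 had 6 peaks each, and all 6 were members. On chromosome 15 these were 3 pairs within 49.2 kb. The remaining 2 bins, from 74 to 75 Mb of chromosome 6 and from 80 to 81 Mb of chromosome X, held 5 members each, in 1 pair and 1 group of 3.

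The share of members rose with the number of peaks in a bin, from 9.04% in bins with 2 peaks to 28.4% in bins with 5 to 9 and 58.3% in bins with 10 or more. Part of this follows from the rule, since more peaks in 1 Mb leave less room between them. Crowded bins were nevertheless not all alike. Of the 13 bins with 10 or more peaks, 10 had at least 5 members. The bins from 13 to 14 Mb of chromosome 10 and from 102 to 103 Mb of chromosome 4 had 11 and 10 peaks and only 1 pair each. Conversely, 5 bins with fewer than 10 peaks had 5 or 6 members.

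**Figure D4:**
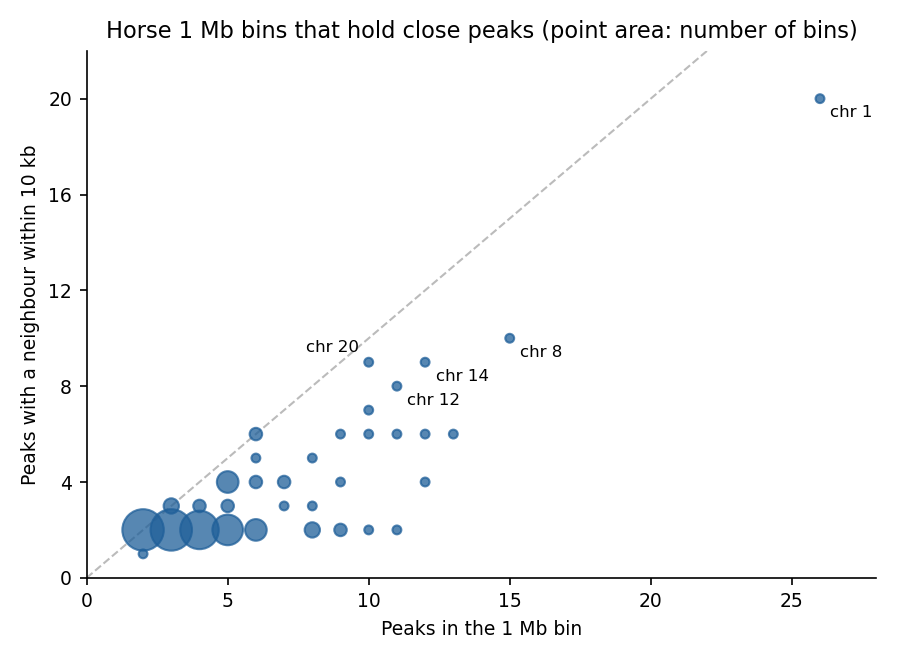
Peaks with a neighbour within 10 kb (vertical axis) against all peaks (horizontal axis) in each of the 125 horse bins of 1 Mb that held such a peak; point area gives the number of bins and the dashed line marks bins where all peaks were close ones. The chromosome 1 bin lies far to the right with 20 of 26, and most bins sit at 2 close peaks.

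The most crowded place, on chromosome 1, ran on into the next bin. Between 162 and 164 Mb there were 37 peaks, of which 26 were members in 10 groups, namely 5 pairs, 4 groups of 3 and the group of 4 with close pairs at both ends. The groups covered 393 kb, from 162751525 to 163144685, and only 3 of the 29 peaks in that stretch were single. Edge to edge, the groups stood 10.4 to 63.4 kb apart, with a median of 36.2 kb. In 6 of the 10 groups the smallest distance was at most 1.3 kb.

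Within this stretch, 3 of the 4 groups of 3 repeated one layout, a short distance followed by a longer one in the direction of rising positions. The group at 162751525 to 162757145 had distances of 1220 and 4000 bp, the group at 162814025 to 162820780 had 720 and 5635 bp, and the group at 162864215 to 162870485 had 1190 and 4680 bp. The fourth, at 162913840 to 162926000, had 6625 and 5135 bp. This order was noticed after the values had been seen. On the low side, 6 single peaks lay between 162372235 and 162700275 at wider spacing.

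The stretch held 7.08% of all members and 54.2% of those of chromosome 1. For comparison, the bins from 162 to 164 Mb carried 37 of the 2185 horse peaks and of the 185 peaks of chromosome 1. Without the whole of both bins, from 162 to 164 Mb with their 37 peaks, 22 of the other 148 peaks of chromosome 1 were members (14.9%). The share for the whole list was then 15.9% (341 of 2148 peaks), and chromosome 2 had the most members.

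**Figure D5:**
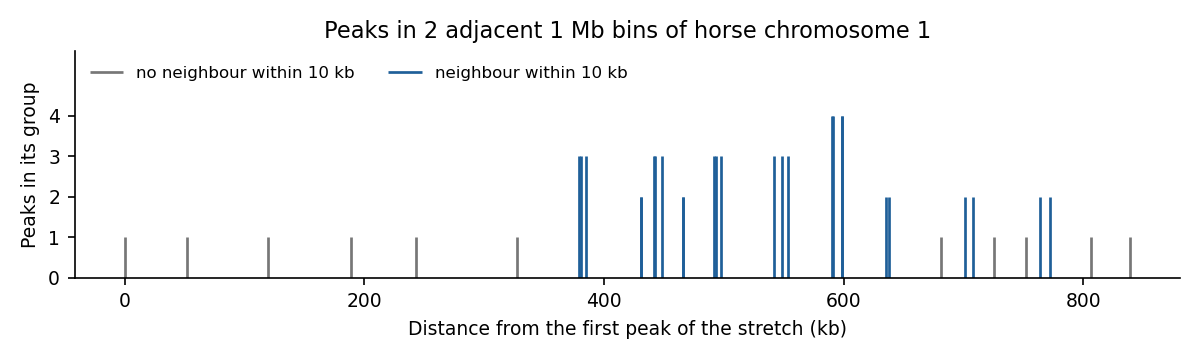
The 37 horse peaks in the bins from 162 to 164 Mb of chromosome 1, placed by distance in kb from the first of them (horizontal axis); line height gives the number of peaks in the group of each peak, 1 for a single peak (vertical axis). Blue lines, the 26 members, fill the middle of the stretch, with grey single peaks on both sides.

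In the other lists the same count gave 315 of 2273 dog peaks, 253 of 2357 mouse peaks and 1556 of 5260 human peaks. Pairs made up 82.6% of the groups in horse, 76.7% in dog, 87.1% in mouse and 74.9% in human. The largest group had 6 peaks in horse and in mouse, 7 in human and 14 in dog. The median distance between neighbours in a group was 3210 bp in horse, 3065 bp in mouse, 2275 bp in dog and 830 bp in human. The smallest distance was 470 bp in horse, 460 bp in dog and 455 bp in mouse and human. In all 4 lists the peaks were 400 bp wide without overlap, so no distance could fall below 400 bp. Of the horse distances 23.3% were at most 1 kb, compared with 27.2% in dog, 29.2% in mouse and 59.3% in human. The cells and genome builds differ between the lists, and the depths and thresholds are unknown, so these values stand side by side and the differences were not tested.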

How the data were processed

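NRSF binding was measured by ChIP-seq in 9 samples, with 2 immunoprecipitated and 1 input sample for each of mouse, dog and horse. Per the submitters' processing notes, Bowtie 0.12.8 and MACS 1.4.2 were used, in roles that are not stated. The values the authors deposited are peak starts and ends in bp, with no count, signal or score. Not given in the sources used here are the genome build of the horse list, its threshold, how replicates were joined and whether positions count from 0 or 1.

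Peaks were sorted by midpoint, and consecutive peaks of a chromosome at most 10 kb apart were chained into groups. Bins of 1 Mb were counted from position 0, and a peak was placed by its midpoint. Intervals of shares are exact 95% Clopper-Pearson intervals for counting error alone. The regions named were all groups of 5 or more peaks, the 5 closest pairs, the 3 distances on each side of 10 kb, the bins with 5 or more members and the chromosomes with the most and fewest members. Other regions were named with their values in view. The members and these rules were chosen with earlier results of these data known. Alternatives were other reaches, edge distances, merged peaks, a limited group span, shifted bins, another minimum for crowded bins and lists without crowded bins. The code that forms groups was checked on simulated positions with planted groups, which is no test of the spacing against chance. Python 3.11.15, numpy 2.4.6, pandas 2.3.3, scipy 1.17.1 and matplotlib 3.10.9 were used.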

Additional observations from a re-analysis of the deposited data

How the results depend on the processing

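Of 39 alternative values, 21 stayed within 1.5 times the reported count or distance, or inside the exact 95% interval of the reported share, and 18 did not. The 21 include merging peaks that overlap or touch, which could change nothing because no horse peaks do. With reaches of 5 and 20 kb, the share of horse peaks with a neighbour was 11.4% and 22.7%, pairs made up 88.7% and 73.0% of the groups, and the median distance was 1600 and 5510 bp. These changes follow from the reach itself. The share was 7.21% and 16.3% in mouse, 10.4% and 19.9% in dog, and 26.8% and 34.2% in human. Without the bins of 10 or more peaks it was 13.4% in horse, 8.24% in mouse, 10.6% in dog and 27.3% in human. Chromosome 1 then held 8.12% of the horse members in place of 13.1%, and chromosome 11 the most. Without chromosome 1 from 162 to 164 Mb, a setting chosen after the data were seen, it held 6.45%, and chromosome 2 the most. Bins that hold 50% of the members numbered 34 with bins shifted by 500 kb too, and the stretch on chromosome 1 then fell into a single bin with 26 members. No paired analysis was possible because each species has 1 list and no value per replicate. For the same reason no replicate could be left out. Depth is unknown, so peaks missing from a list cannot be told from places without binding.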

Other observations

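All starts in the horse list are multiples of 5. Of the 367 close peaks, 310 (84.5%) had a start ending in 5, and of the 1818 other horse peaks 1504 (82.7%) did. In the dog list the shares were 83.5% of close peaks and 81.9% of the others, in mouse 80.6% and 80.3%, and in human 76.3% and 80.5%. The last digit of a position played no part in choosing the members. The excess of starts ending in 5 over starts ending in 0 occurred in all 4 lists, and its origin was not tested.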
